A study of Drosophila melanogaster with 8 samples.

Results

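The 10 genes described here are regulators and executors of apoptosis in Drosophila, chosen by name from a gene table of 14012 genes. All 10 were found, some under newer names: th is Diap1 (CG12284), W is hid (CG5123), Nc is Dronc (CG8091), Ice is Drice (CG7788) and Ark is Dark (CG6829). The others are Diap2 (CG8293), rpr (CG4319), Dcp-1 (CG5370), p53 (CG33336) and Buffy (CG8238). Polyadenylated RNA had been sequenced from exosomes, the small vesicles that cells release from endosomes, and from the cells that made them, to find which RNAs the vesicles carry. The cells were S2, an embryonic Drosophila line that resembles macrophage-like blood cells, and no genotype, treatment or time was given for either group. Each group had 4 libraries, numbered 1 to 4 by title, and values below are always given in that order. All came from this 1 line, and nothing in the labels says that they were separate cultures, so p-values measure only how far these libraries scatter, and some of that scatter may be technical. In such bulk RNA, fewer vesicles with a transcript and fewer copies per vesicle cannot be told apart.

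Apoptosis in flies is held back by inhibitor of apoptosis (IAP) proteins, which bind caspases and mark them with ubiquitin. The proteins Reaper (rpr) and Hid bind the IAPs and set the caspases free. The initiator caspase Dronc, assembled on the adaptor Dark, then cleaves the effector caspases Drice and Dcp-1, which take the cell apart. S2 cells are known to depend on Diap1 for survival.

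The deposited values were taken as FPKM, fragments scaled to transcript length and library size by the authors, though no header states the unit. Their sum per library ran from 91304 (exosome replicate 3) to 1140885 (cell replicate 2), so levels are also given as parts in 1000000 of the library's summed FPKM, called the rescaled level below. The number of fragments behind a value could be estimated in 6 libraries from the steps of low values. The FPKM had been scaled to about 99500 fragments in exosome replicate 2 and to between 1950000 (exosome replicate 3) and 6440000 (cell replicate 4) in the other 5. No step was found in the replicates numbered 1, whose depth is unknown. Of genes with a median FPKM of 5 to 50 in the other 7 libraries, 41.1% were listed at 0 in exosome replicate 1 and 35.9% in exosome replicate 2, against 0.161% to 4.67% in the other 6. All 10 blood-cell (plasmatocyte) markers looked for were in the table, with a summed rescaled level of 156 to 778 in exosomes and 282 to 1004 in cell replicates 2 to 4. Cell replicate 1 stood apart from these at 6951, most of it from SPARC, Col4a1 and vkg. In cell replicate 1 the rescaled level of Hml, at 112, was also above the other cell libraries (0.362 to 2.04). Those of He and eater, at 0.268 and 0.464, were below them (34.8 to 204 and 22.0 to 38.2). Exosome replicate 1 was likewise the only exosome library with Hml above 0, at 6.29, and had He at 0.233 and eater at 0. However, SPARC was at 0 there, unlike in cell replicate 1, and He was also at 0 in exosome replicate 2. All 10 markers were above 0 in every cell library, some only barely, such as NimC1 at 0.0280 FPKM in cell replicate 1. In every exosome library 4 of them (Col4a1, vkg, crq and Pxn) were above 0. Markers of crystal cells, germline, neurons and fat body had summed rescaled levels of at most 6.93 in any library, and of muscle at most 18.6. Among lamellocyte markers, atilla and ItgaPS4 were listed at 0 in 7 of 8 libraries each, and mys and PPO3 gave most of the summed rescaled level of 15.6 to 197.

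The mRNA of Diap1 was present in every exosome and cell library and was the most abundant of the 10 genes in 7 of 8. Diap1 encodes the IAP that restrains Dronc and Drice. Its FPKM was 61.3, 74.2, 34.1 and 95.7 in exosome replicates 1 to 4. In cell replicates 1 to 4 it was 125, 368, 31.7 and 26.5. The groups overlapped, with the highest and the lowest value both in cells. The exosome mean was 66.4 ± 25.7 FPKM (SD, n = 4) and the cell mean 138 ± 160 (SD, n = 4) (exact permutation test, two-sided, p = 0.629). The rescaled levels of Diap1 were 72.2, 223, 374 and 226 in the exosome libraries, against 171, 323, 309 and 239 in the cell libraries (exact permutation test, two-sided, p = 0.629). Rescaling narrowed the cell libraries from a 13.9-fold to a 1.89-fold range and widened the exosome libraries from a 2.80-fold to a 5.18-fold range. Diap1 ranked between 217th and 597th among all genes in exosomes and between 228th and 678th in cells.

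Diap2, the second IAP, is known for its part in the Imd immune pathway as well as for binding Drice. It was also detected in all 8 libraries. Its FPKM was 73.7, 22.2, 12.2 and 11.2 in the exosome libraries, against 67.6, 60.5, 6.51 and 5.63 in the cell libraries. The groups covered much the same range (29.8 ± 29.7 and 35.1 ± 33.6 FPKM, SD, n = 4 each, exact permutation test, two-sided, p = 1). The rescaled levels of Diap2 were 86.7, 66.9, 133 and 26.4 in the exosome libraries, against 92.7, 53.02, 63.4 and 50.9 in the cell libraries (exact permutation test, two-sided, p = 0.629). In exosome replicate 1 the FPKM of Diap2 exceeded that of Diap1, 1.202 to 1, and in the other 7 libraries Diap2 stood at 0.117 to 0.543 of Diap1.

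**Figure D1:**
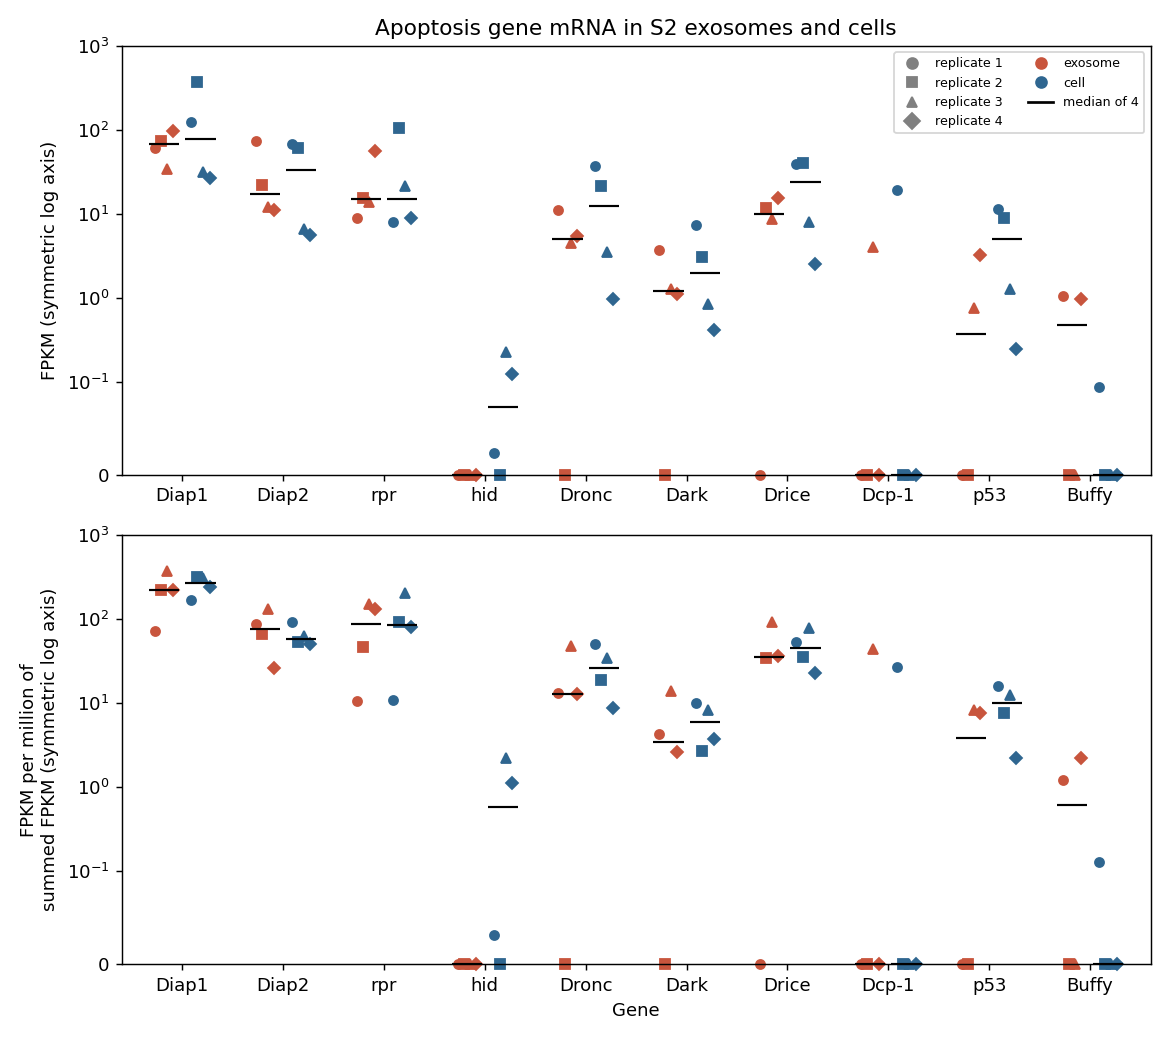
Levels of the 10 genes in 4 exosome (red) and 4 cell (blue) libraries, as FPKM (top) and as rescaled level (bottom), on symmetric log axes that reach 0; the marker shape gives the replicate and the black line the median of 4. The exosome and cell values overlap for every gene on both scales.

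Of rpr and hid, whose proteins antagonise the IAPs, only rpr was listed above an FPKM of 1 in any library. Its FPKM was 8.93, 15.6, 13.99 and 55.4 in the exosome libraries, against 7.97, 105, 21.3 and 8.86 in the cell libraries. Exosome replicate 4 and cell replicate 2 stood well above the other 3 of their group. The exosome mean was 23.5 ± 21.5 FPKM (SD, n = 4) and the cell mean 35.8 ± 46.7 (SD, n = 4) (exact permutation test, two-sided, p = 0.771). The rescaled levels of rpr were 10.5, 47.0, 153 and 131 in the exosome libraries, against 10.9, 92.2, 207 and 80.2 in the cell libraries (exact permutation test, two-sided, p = 0.8). On both scales the replicate numbered 1 was the lowest in each group. The value of 15.6 FPKM in exosome replicate 2 rests on about 1 fragment, with a 95% exact Poisson interval of 0.363 to 79.9 FPKM. Such intervals cover counting error only, since fragments copied by PCR are not independent molecules.

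No exosome library listed hid above 0, and in cells it reached at most 0.227 FPKM. The cell values were 0.0231, 0, 0.227 and 0.123 FPKM, and those of cell replicates 3 and 4 correspond to about 2 and 3 fragments. In exosome replicates 3 and 4, 3 fragments of hid would have given 0.403 and 0.374 FPKM, which is above every cell value, so a difference was not detectable at this depth (exact permutation test, two-sided, p = 0.143). Without cell replicate 2, where hid was also at 0, p fell to 0.0286 in the exact permutation test, its floor for 4 against 3. That was the only cell library at 0, so leaving it out separated the groups by construction. No difference can be read from that p. The 2 related antagonists nearby in the genome, grim and skl, were at 0 in every library and at 0.0361 FPKM in cell replicate 1 alone, respectively.

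The effector caspase Drice was the most abundant of Drice, Dronc and Dcp-1 in 7 of 8 libraries. Its FPKM was 0, 11.6, 8.56 and 15.4 in the exosome libraries, against 39.4, 40.6, 8.05 and 2.54 in the cell libraries. Cell replicates 1 and 2 lay above all exosome libraries, and cell replicates 3 and 4 lay below the 3 exosome libraries in which Drice was listed. The rescaled levels of Drice were 0, 34.8, 93.8 and 36.3 in the exosome libraries, against 54.1, 35.6, 78.4 and 23.0 in the cell libraries. Neither scale gave a difference beyond the spread (exact permutation test, two-sided, p = 0.343 for FPKM and p = 0.771 rescaled). Drice was at 0 in exosome replicate 1, as were 38.9% of the 910 genes whose median in the other 7 libraries lay within 1.5-fold of its own.

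Dronc, the initiator caspase, was listed in 7 of 8 libraries. It had 11.1, 0, 4.42 and 5.48 FPKM in the exosome libraries, against 37.3, 21.4, 3.53 and 0.965 in the cell libraries. The groups overlapped, and cell replicate 4 had the lowest value above 0 (exact permutation test, two-sided, p = 0.343). In exosome replicate 2, 3 fragments of Dronc would have given 16.6 FPKM, so its 0 does not set that library apart from 5 of the other 7. The rescaled levels of Dronc were 13.0, 0, 48.5 and 12.9 in the exosome libraries, against 51.1, 18.8, 34.4 and 8.73 in the cell libraries (exact permutation test, two-sided, p = 0.486). The adaptor Dark, on which Dronc is activated, was low as well, at 3.67, 0, 1.27 and 1.12 FPKM in the exosome libraries, against 7.38, 3.07, 0.847 and 0.408 in the cell libraries. These groups overlapped too (exact permutation test, two-sided, p = 0.6).

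The second effector caspase, Dcp-1, was listed in only 1 library of each group. It had 3.99 FPKM in exosome replicate 3, about 12 fragments, and 19.4 FPKM in cell replicate 1. In the other 6 libraries it was listed at 0, among them cell replicate 4, where 3 fragments would have given 0.322 FPKM. In the Release 6 annotation 239 exonic bases of Dcp-1 overlap pita, a gene on the opposite strand. The libraries were strand-marked, but the sources used here do not say whether counting was by strand. The listing of pita was also uneven, at 0, 4.42, 1.73 and 8.03 FPKM in the exosome libraries, against 34.9, 0, 0 and 1.06 in the cell libraries. An exact 0 in such files can be a failed estimate, so the separate level of Dcp-1 is uncertain and no ratio between the groups is given. Noncoding genes on the opposite strand overlap 2779 exonic bases of Dark, 812 of p53 and 347 of Diap1. They had no entry among the deposited genes, so their share in those values is unknown.

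The transcription factor p53, which responds to DNA damage and is known to switch on rpr and hid, was low in both groups. It had 0, 0, 0.747 and 3.25 FPKM in the exosome libraries, against 11.6, 8.81, 1.28 and 0.244 in the cell libraries. Exosome replicate 4 lay above cell replicates 3 and 4, so the groups overlapped (exact permutation test, two-sided, p = 0.2, and p = 0.171 for the rescaled levels). At 0 in exosome replicates 1 and 2, p53 shared its listing with 47.2% and 74.9% of the genes of like median in the other libraries. Its values in exosome replicate 3 and cell replicates 3 and 4 rest on about 2, 4 and 2 fragments. Buffy, a Bcl-2 family gene, had 1.04 and 0.952 FPKM in exosome replicates 1 and 4, 0.0945 in cell replicate 1 and 0 in the other 5 libraries. The value in exosome replicate 4 stands for 1 or 2 fragments (exact permutation test, two-sided, p = 0.429).

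**Figure D2:**
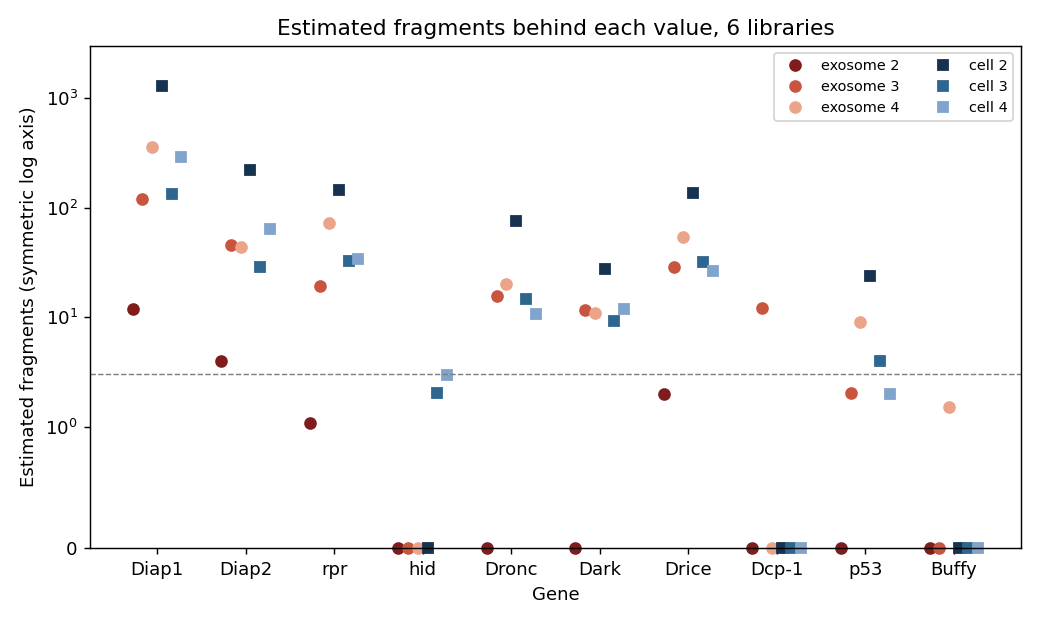
Estimated fragments behind each value in the 6 libraries whose depth could be read (circles, exosomes; squares, cells), on a symmetric log axis that reaches 0; the dashed line marks 3 fragments. In exosome replicate 2 Diap1 rests on about 12 fragments, Diap2 on 4, Drice on 2 and rpr on 1.

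By the median rescaled level over 8 libraries the order was Diap1 (233), rpr (86.2), Diap2 (65.1), Drice (36.0), Dronc (15.9), p53 (7.69) and Dark (4.00), with hid, Dcp-1 and Buffy at 0. FPKM is per length, so levels of different genes can be set side by side. Diap1 stood above rpr in 8 of 8 libraries, and Drice above Dronc in 7 of 8. In exosome replicate 2 these orders rest on about 12 fragments of Diap1, 1 of rpr, 2 of Drice and 0 of Dronc. The 95% counting intervals of each of these pairs overlap there. The neighbours rpr and Diap2 kept their order in 5 of 8 libraries, Diap2 and Drice in 6 of 8, and p53 and Dark in 4 of 8. These 3 neighbouring pairs are therefore not separated beyond the spread between libraries.

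Ratios of genes within a library do not depend on how the library was scaled, and none separated exosomes from cells in 5 ratios compared. For each Diap1 FPKM there were 0.146, 0.210, 0.410 and 0.579 rpr FPKM in the exosome libraries, against 0.0639, 0.286, 0.671 and 0.335 in the cell libraries. The 0.210 of exosome replicate 2 rests on about 1 fragment of rpr. The mean ratio of rpr to Diap1 was 0.336 ± 0.197 (SD, n = 4) for exosomes and 0.339 ± 0.251 (SD, n = 4) for cells (exact permutation test, two-sided, p = 0.971). The ratio of Drice to Diap1 was 0.142 ± 0.104 (SD, n = 4) for exosomes and 0.194 ± 0.108 (SD, n = 4) for cells (exact permutation test, two-sided, p = 0.486). The ratio of Dronc to Drice, which needed Drice above 0, was 0.291 ± 0.264 (SD, n = 3) for exosomes and 0.573 ± 0.255 (SD, n = 4) for cells (exact permutation test, two-sided, p = 0.257). The ratios of Diap2 and Dronc to Diap1 gave p = 0.571 and p = 0.686 by the same two-sided exact permutation test.

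Of the summed FPKM of the 10 genes, the 2 IAP genes made up 84.5%, 78.0%, 58.4% and 56.7% in the exosome libraries, against 61.0%, 70.5%, 52.1% and 70.9% in the cell libraries. The 3 caspase genes together made up 6.94%, 9.35%, 21.4% and 11.1% in the exosome libraries, against 30.5%, 10.2%, 15.8% and 7.76% in the cell libraries. IAP mRNA thus exceeded caspase mRNA in every library. The 10 genes together had a summed rescaled level of 188, 372, 868 and 445 in the exosome libraries. In the cell libraries it was 432, 533, 715 and 409.

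**Figure D3:**
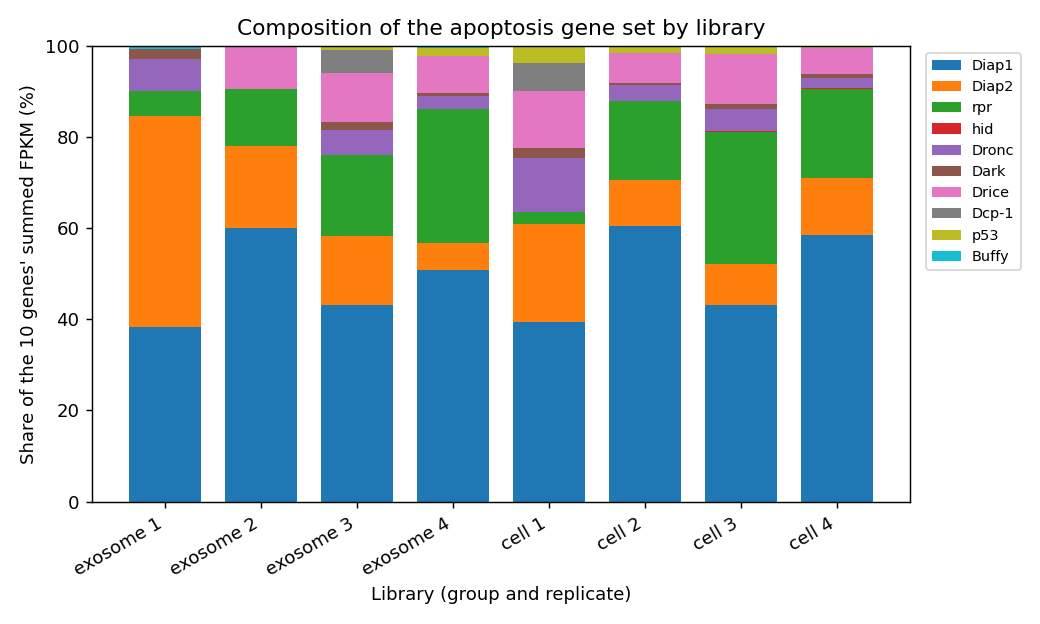
Share of each gene in the summed FPKM of the 10 genes, for each exosome and cell library. Diap1 (blue) makes up 38.4% to 60.1% in exosomes and 39.5% to 60.6% in cells.

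Both IAP genes were listed as more than 1 transcript form, and the listed form differed between libraries. In the Release 6 annotation the Diap1 forms -RA, -RB and -RC share a coding length of 1314 bases and differ in the length of the 5′ untranslated region (439, 291 and 241 bases). Exosome replicates 3 and 4 and cell replicates 3 and 4 listed -RA alone. Exosome replicate 2 listed -RC alone, and exosome replicate 1 had 29.0 FPKM of -RA and 32.4 of -RC. The 2 forms of Diap2 share 1494 coding bases and differ in a 5′ untranslated region of 147 (-RA) or 38 bases (-RB). Exosome replicates 1 and 2 listed -RB alone (73.7 and 22.2 FPKM) and exosome replicates 3 and 4 listed -RA alone (12.2 and 11.2 FPKM). Cell replicates 1, 2 and 4 listed both Diap2 forms, with -RA at 52.1%, 67.4% and 72.2%, and cell replicate 3 listed -RA alone. A single listed form was common: among genes with several forms and a summed FPKM above 10, it was found in 60.8% (exosome replicate 3) to 86.2% (exosome replicate 2) of exosome listings and 44.3% to 67.3% of cell listings. The forms differ by a short stretch at 1 end, so their separate levels are uncertain. Dark was listed as -RB, with 4320 coding bases, in each of the 7 libraries where it was above 0, and as the shorter-coding -RA only in exosome replicate 3 (0.584 FPKM). The p53 form -RB was at 0 in all 8 libraries, so all p53 signal was assigned to -RA.

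**Figure D4:**
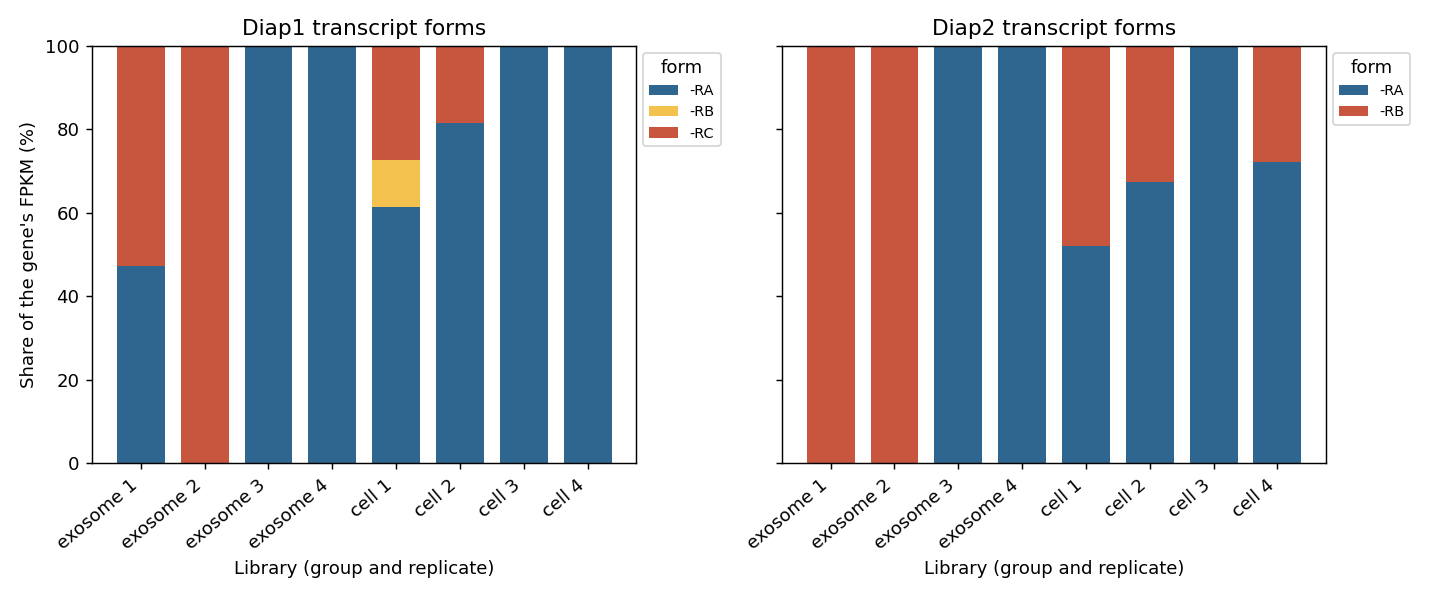
Share of each listed transcript form in the FPKM of Diap1 (left) and Diap2 (right), by library. For Diap2, exosome replicates 1 and 2 list -RB alone and exosome replicates 3 and 4 list -RA alone.

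In the fit across all genes, 7 of the 10 genes had an FPKM above 1 in at least 4 libraries and were tested, and hid, Dcp-1 and Buffy were not. With limma on log2(FPKM + 1), 0 of the 7 were called at an adjusted p of 0.05 and 0 had an unadjusted p under 0.05. The background over 5868 genes was 0% called, and 4.7% at an unadjusted p under 0.05 (0.0852% higher and 4.62% lower in exosomes). Of the 7, 2 were listed at 0 in exosome replicate 1 and 3 in exosome replicate 2, where the background over tested genes was 42.3% and 48.9%. No gene of the 10 had groups without overlap on either scale. Over all tested genes this occurred for 0.0341% higher and 0.75% lower in exosomes by FPKM, and for 0.17% and 2.83% by rescaled level. The smallest p that the exact test allows for 4 against 4 is 0.0286, and the smallest among the 10 genes was 0.143 on each scale. Fold changes on this scale understate the change of low genes.

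The median log2 difference of the 7 genes was -0.49, against -1.01 for all genes tested, and 4 of the 7 lay above the latter (50% of all tested genes do by definition). The log2 difference was 0.10 (SE 1.55) for Diap2, -0.15 (SE 1.53) for rpr and -0.35 (SE 1.73) for Diap1. It was -0.49 (SE 0.89) for Dark, -1.04 (SE 1.32) for Dronc, -1.19 (SE 1.41) for Drice and -1.39 (SE 0.91) for p53. Every one of these lay less than 2 SE from 0, with adjusted p from 0.708 (p53) to 0.983 (Diap2) in limma. With quantile normalization, where the median of all genes was 0.11, the difference turned positive for Diap1, rpr, Dronc, Dark and p53. Dronc, Dark and p53 were negative in every other fit that tested them. Of all tested genes, 42.3% were at 0 in exosome replicate 1 and 48.9% in exosome replicate 2. What these zeros do under quantile normalization was not tested. No direction is given for any of the 7 genes, since their differences lay less than 2 SE from 0. For Diap1, rpr, Dronc, Dark and p53 the sign also depended on the scaling. The log2 differences of Diap2 and Drice kept their sign on each scaling but changed it in fits that left libraries out. An effect of several-fold could have been missed, since the SE of single genes ran from 0.89 to 1.73 log2 units. For Diap1, Diap2 and rpr, where the SE was largest, a still larger effect could have been missed.

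**Figure D5:**
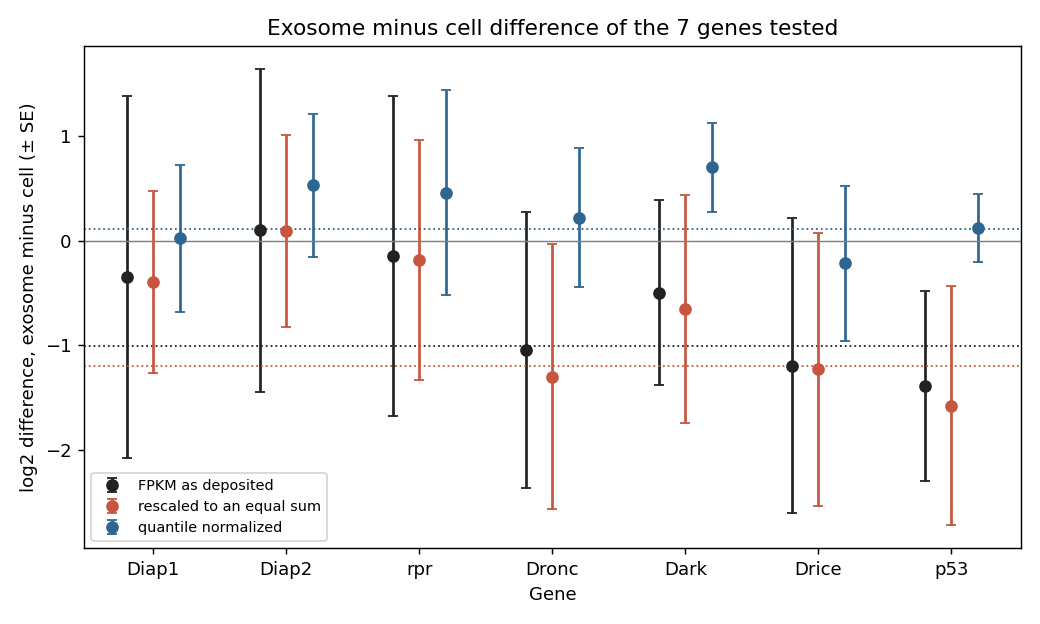
Log2 difference (exosome minus cell) ± SE of the 7 genes tested, from limma on log2(value + 1), with FPKM as deposited, rescaled to an equal sum, and quantile normalized; dotted lines give the median of all 5868 genes on each scale (-1.01, -1.19 and 0.11). Error bars of 1 SE reach 0 for most genes, and the sign of several genes depends on the scaling.

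The other genes of the cell death pathways were read from the same fit. Of 57 names in 10 lists, 54 genes were in the table, and 36 passed the low-value filter. The names Ubcd1 and mnk stand for eff and lok, which were already listed, and Cul3 was not matched to a single gene. With limma, 0 of 36 were called in either direction and 2 had an unadjusted p under 0.05, a share near the 4.7% of all tested genes. Their median log2 difference was -1.19 against -1.01 for all genes, with 14 of 36 above it. The 2 with a low unadjusted p were Bruce, a giant IAP-domain ubiquitin ligase (log2 difference -2.07, SE 1.004, adjusted p = 0.708), and wgn, a TNF receptor (-2.93, SE 1.21, adjusted p = 0.708). Bruce was at 0, 0, 2.82 and 0.411 FPKM in the exosome libraries, against 22.5, 4.52, 3.89 and 1.64 in the cell libraries.

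Among the other caspases 1 of 4 was tested. Strica had 5.64, 14.8, 1.77 and 12.8 FPKM in the exosome libraries, against 30.1, 13.4, 4.29 and 1.75 in the cell libraries, and Dredd, the caspase of the Imd pathway, had at most 2.23 FPKM in exosomes and 0.244 to 13.5 in cells. Decay was at 0 in all 8 libraries, and Damm only reached 0.141 FPKM in cell replicate 1. Beside Bruce, the other tested IAP gene was Det, a survivin relative, at 0, 0, 3.38 and 22.4 FPKM in the exosome libraries, against 39.0, 53.7, 5.11 and 1.40 in the cell libraries. The Bcl-2 family gene Debcl was more abundant than Buffy in 7 of 8 libraries, with 60.9, 0, 6.09 and 19.0 FPKM in the exosome libraries, against 52.5, 60.9, 10.1 and 3.02 in the cell libraries. HtrA2, a protease gene whose product can also bind IAPs, was not tested and had at most 0.339 FPKM in exosomes and 5.63 in cells. The exosome and cell values of each of these genes overlapped.

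In the list of adaptors and cytochrome c 3 of 4 members were tested. Cyt-c-p, the main cytochrome c, had 867, 368, 92.0 and 546 FPKM in the exosome libraries, against 566, 1369, 141 and 53.1 in the cell libraries. The log2 difference was 0.36 (SE 1.92) for Cyt-c-p and 0.73 (SE 1.72) for eIF3m. The latter gene, also named Tango7, encodes a translation factor subunit with a known part in caspase activation. Of the 4 genes of IAP and caspase turnover matched, eff (a ubiquitin-conjugating enzyme) had 0, 27.9, 44.6 and 126 FPKM in the exosome libraries, against 166, 201, 55.0 and 13.1 in the cell libraries. Roc2, a RING subunit of cullin ubiquitin ligases, had a log2 difference of -0.71 (SE 1.41). In JNK and TNF signalling 9 of 11 genes were tested, with a median log2 difference of -1.81 and 3 above the median of all genes. Its most abundant members were kay, which encodes the fly Fos protein (log2 difference -2.59, SE 1.54), and egr, the TNF ligand (-1.88, SE 1.39).

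The remaining lists gave 0 calls as well. Of the p53 and DNA damage genes 3 of 5 were tested, and Xrp1, a stress-response transcription factor, had 0, 149, 61.5 and 111 FPKM in the exosome libraries, against 241, 428, 246 and 21.9 in the cell libraries. The checkpoint kinase gene lok had a log2 difference of -0.43 (SE 1.17). Of the engulfment genes 5 of 7 were tested, led by the adaptor ced-6 (log2 difference -0.80, SE 1.60) and the scavenger receptor crq (-1.24, SE 1.503). Of the regulators 6 of 7 were tested, led by yki, the Hippo pathway coactivator that is known to raise Diap1 transcription (1.07, SE 1.62), and hpo, the kinase that opposes it (-1.40, SE 1.14). Of the DNA fragmentation genes 2 of 6 were tested, with log2 differences of -1.64 (SE 1.06) for AIF and -1.14 for Drep4.

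The genes whose rescaled level followed that of Diap1 most closely were Sgsh (Pearson r = 0.973), sw (r = 0.970) and CG31431 (r = 0.970), over 8 libraries on a log2(value + 1) scale. All 3 were listed at 0 in exosome replicate 1, where Diap1 was lowest. Among the 10 genes, r with Diap1 was 0.899 for Drice, 0.841 for rpr, 0.571 for p53, 0.155 for Dronc, 0.120 for Dark and -0.0918 for Diap2. The 8 libraries share their scale and depth across genes, so these values describe the libraries and are given without a test.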

How the data were processed

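Polyadenylated RNA was extracted with a Qiagen kit and made into strand-marked libraries, per the labels' protocols. The build dm3 and the tools Cufflinks, DESeq2 and TopHat2 are listed in the submitters' processing notes, with neither version nor role. The deposited gene table was taken as FPKM made by the authors: values are not whole and library sums differ. Its 21081 transcripts were summed to 14012 genes by identifier. Symbols (13538 matched) and lengths are from Release 6, so no coordinates are given. The transposon table was not used.

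Genes above FPKM 1 in at least 4 libraries were tested with limma 3.58.1 (R 4.3.3) on log2(FPKM + 1), with a trend, no block and Benjamini-Hochberg adjustment over all genes at 0.05. Single values were compared by exact permutation over 70 splits (10 genes on each of 2 scales; p unadjusted), on FPKM and after rescaling each library to a sum of 1000000. Depth was estimated from single-transcript genes by the fragment number that put most low values within 0.15 of a whole number: 77.3% to 91.0% in 6 libraries, against 30% for evenly spread values. Because the step was chosen on those values, such shares are inflated. The limma fit and the depth estimate were tested on simulated data. At the spread of these libraries limma recovered most genes with the larger of 2 added changes and none with the smaller, which it recovered when the spread was reduced.

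The genes and lists were chosen with earlier results of these data known. Named list genes are the called ones and up to 2 per list by mean FPKM; other list genes were named after their values were seen.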

Additional observations from a re-analysis of the deposited data

Results flagged for a closer look

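Single libraries stood far from the other 3 of their group in 8 of 38 sets of 4 values examined. In 6 of the 8 (Dcp-1 and Buffy) the other 3 values were all 0, so any listing stands apart by construction, and the chance rate of about 1 in 20 does not apply there. The FPKM and rescaled values of a gene are not independent. The FPKM of rpr was 55.4 in exosome replicate 4 and 105 in cell replicate 2, each far above the rest of its group, and neither stood apart on the rescaled level. Dcp-1 was listed only in exosome replicate 3 (3.99 FPKM, rescaled 43.7) and cell replicate 1 (19.4 FPKM, rescaled 26.6). Among cells, Buffy was listed only in cell replicate 1 (0.0945 FPKM, rescaled 0.130).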

How the results depend on the processing

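Across 17 alternative fits limma called 0 genes and 0 of the members tested (4 to 10), and the lowest adjusted p of a member was 0.216. Genes at an unadjusted p under 0.05 ranged from 22 (without exosome replicates 1 and 2) to 1215 (without cell replicate 4, where p53 had an unadjusted p of 0.0281 in limma). The members' median log2 difference ranged from -1.04 (pseudocount 0.1) to 0.22 (quantile normalization). Leaving out 1 library at a time gave -0.87 (without cell replicate 4) to 0.01 (without cell replicate 2).

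The log2 difference changed sign in 14 of 110 alternative values. With quantile normalization it was 0.025 for Diap1, 0.46 for rpr, 0.22 for Dronc, 0.70 for Dark and 0.12 for p53. Leaving out 1 library at a time gave -0.86 to 0.39 for Diap1, -0.47 to 0.66 for Diap2 and -0.66 to 0.62 for rpr. Without both replicates numbered 1, Drice was at 0.19, and without exosome replicates 1 and 2, Diap2 was at -0.76 and rpr at 0.44. The difference of mean FPKM turned in 11 of 110 values. Leaving out 1 library at a time gave -108.5 to 5.44 for Diap1, -19.9 to 5.61 for Diap2, -22.99 to 10.8 for rpr, -2.25 to 0.0736 for Dark and -5.48 to 0.998 for Dcp-1. It was 1.33 for Dcp-1 without both replicates numbered 1. After rescaling it was 13.2 for Diap2 and 4.27 for Dcp-1. The cause was not tested.

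The labels do not say that a replicate number marks a shared culture or batch. Deviations from the group means correlated at 0.233, 0.191 and 0.452 between libraries numbered 1, 2 and 3, where each exosome library correlated best with its own number, and at -0.0676 between those numbered 4. Exosome replicate 4 correlated best with cell replicate 2, at 0.413, which is above the values of the libraries numbered 1 and 2. The hint of pairing is therefore partial. It comes from the data, not the design, and the numbers were not taken as pairs. With the replicate block 0 genes were called by limma, the members' median stayed at -0.49, and 5 genes were higher and 163 lower at an unadjusted p under 0.05, against 5 and 271 without the block. After rescaling, the counts were 12 and 494 with the replicate block and 6 and 334 without it. In exosome replicate 2, depth limits every value.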

Other observations

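EndoG, which encodes a mitochondrial nuclease, was listed at 46.5 FPKM in exosome replicate 1 and at 0 in the other 7 libraries. Its mean of 5.81 FPKM, all from that 1 library, was the highest of the DNA fragmentation list, and it was not tested. The pattern was remarked on after the values were seen.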
